A study of Mus musculus with 3 samples.

Results

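The unfolded protein response and secretory genes are 36 of the 32285 genes in the expression matrices. They were taken as a fixed list of gene symbols and not by a cut on their measured values. Earlier results of these data were known when the list was chosen. They fall into 10 lumenal chaperones and their helpers, 2 lectin chaperones, 5 disulfide isomerases, 6 sensors and transcription factors, 7 genes of degradation from the endoplasmic reticulum (ER) and 6 genes of the translocation channel and its associated complex. All 36 were found, and all 36 had UMIs in at least one cell class.

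The expression of these genes was read by droplet single-cell RNA-seq in CD45+ immune cells sorted from aortas of ApoE-/- mice on the C57BL/6J background. ApoE-/- mice lack apolipoprotein E and develop atherosclerosis. All 3 groups carry this genotype on their labels. The control group had no supplement named in its labels, the HHcy group drank water with homocysteine at 1.8 g/L over 4 weeks, and the mice of the WD group received western diet over the same 4 weeks. The study's title places the work in the vascular adventitia and in atherosclerosis accelerated by homocysteine. Each group is 1 library, so no library ratio below has a replicate check. The age and sex of the mice and the number of animals behind each library are not given in the sources used here.

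Where 3 values follow one another, they belong to the control, HHcy and WD libraries in that order. The libraries held 7512, 9753 and 8557 barcodes and between 66789257 and 105180370 UMIs (unique molecular identifiers, which count captured RNA molecules). After filters, 5397, 6415 and 5306 cells were used. Cell classes are rebuilt from marker genes, and every class name stands for cells that resemble that type. The libraries shared between 20 and 24 barcodes pairwise. Apoe stood at 16.3, 374 and 19.3 CPM (UMIs of the gene scaled to a total of 1000000) over all cells and at 27.6, 1129.6 and 26.2 CPM in macrophages. The library labelled HHcy thus stands far above the others although all 3 carry the same genotype label, and where these 3′ tags lie relative to the deleted part of the gene is not given. Ptprc, which encodes CD45, stood at 608, 688 and 611 CPM in B cells and 929, 814 and 661 CPM in macrophages/monocytes. Counts of called genes are also given without that library where a test allows it, and HHcy below means the library so labelled.

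The unfolded protein response adjusts the folding capacity of the ER to the load of proteins that enter it. The sensors IRE1 alpha (Ern1), PERK (Eif2ak3) and ATF6 sit in the ER membrane. IRE1 alpha splices the messenger of XBP1, which switches on chaperone, translocation and degradation genes, while PERK acts through ATF4 and CHOP (Ddit3). Plasma cells, which secrete antibody, need XBP1 to build their secretory apparatus, and in atherosclerosis this response has been studied mainly in lipid-loaded macrophages. Herpud1 was first described as a gene induced by homocysteine.

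The promoters of the members show what they share in sequence. RefSeq promoter windows of 250 bases upstream of the gene start (GRCm38.p6) were at hand for 29 of the 36 members and for 27025 genes in all. There was no window for Atf6, Derl1, Manf, Hyou1, Sec61a1, Ssr2 and Mzb1. The ER stress response element (CCAAT, then 9 of any base, then CCACG, either strand) was found in 9 of 29 members, or 31.0%, and in 35 of 27025 genes, or 0.13%. The 9 members are Hspa5, Hsp90b1, Creld2, Dnajc3, Calr, Canx, Pdia6, Derl3 and Syvn1. Its core CCACG alone, which the full element contains, stood in 21 of 29 members (72.4%) and in 8368 genes (31.0%). The second form of the element (ATTGG, 1 of any base, CCACG) was found in 10 genes (0.037%), of which 1 was a member, Herpud1. The unfolded protein response element (TGACG directly followed by TGG) was found in 163 genes (0.603%), among them Txndc5. The amino acid response element (TGATG, 1 of any base, AA, 1 of any base) was found in 1052 genes (3.89%). It stood in 2 of 29 members (6.9%), Herpud1 and Txndc5. Both strands were searched. A match describes these letters and is not evidence of a bound site. Sequences of 7 members are printed here because their levels recur in the comparisons below. Capitals mark both ends of the element, and where the match is on the opposite strand they read CGTGG and ATTGG.
Hspa5: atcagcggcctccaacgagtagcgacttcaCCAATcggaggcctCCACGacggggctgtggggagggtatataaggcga
Hsp90b1: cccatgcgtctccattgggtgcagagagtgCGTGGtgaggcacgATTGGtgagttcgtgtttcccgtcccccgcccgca
Creld2: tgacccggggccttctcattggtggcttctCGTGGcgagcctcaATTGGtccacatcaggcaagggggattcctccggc
Pdia6: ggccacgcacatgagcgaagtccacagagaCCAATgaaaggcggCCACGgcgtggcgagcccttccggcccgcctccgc
Derl3: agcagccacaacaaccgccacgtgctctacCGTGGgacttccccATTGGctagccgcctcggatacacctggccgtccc
Syvn1: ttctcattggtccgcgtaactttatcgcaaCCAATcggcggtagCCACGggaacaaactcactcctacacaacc
Herpud1: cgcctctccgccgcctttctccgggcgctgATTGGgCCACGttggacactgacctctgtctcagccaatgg
The windows are given 5′ to 3′ on the strand of the gene. They lie at chr2:34771995-34772073 (+ strand) for Hspa5, chr10:86705503-86705581 (- strand) for Hsp90b1, chr15:88819490-88819568 (+ strand) for Creld2 and chr12:17266461-17266539 (+ strand) for Pdia6. Those of Derl3, Syvn1 and Herpud1 lie at chr10:75893212-75893290 (+ strand), chr19:6046502-6046575 (+ strand) and chr8:94386347-94386417 (+ strand). All are upstream of the transcribed part. The element ends between 25 bases (Syvn1) and 137 bases (Derl3) before the start among these 7. Hsp90b1 holds 2 copies, of which the one nearer to the start is shown.

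Plasma cells held the highest summed level of the 36 genes in every library, with 27287, 25954 and 22580.3 CPM. B cells held 4229.7, 4002 and 4319.6 CPM and macrophages/monocytes 5606, 5586 and 5968 CPM. Neutrophils were lowest with 2609, 1834 and 2185 CPM. Between these ends lay fibroblasts (8084, 7955 and 9533 CPM), plasmacytoid dendritic cells (7739, 8148 and 8305 CPM) and conventional dendritic cells (6054, 6190.0 and 5253 CPM). Fibroblasts and endothelial cells lie outside a CD45+ gate and made up few cells, 30 and 11 in the control library. The gap between plasma cells and every other class was wider than the differences among the libraries, as the plot of summed levels shows.

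**Figure D1:**
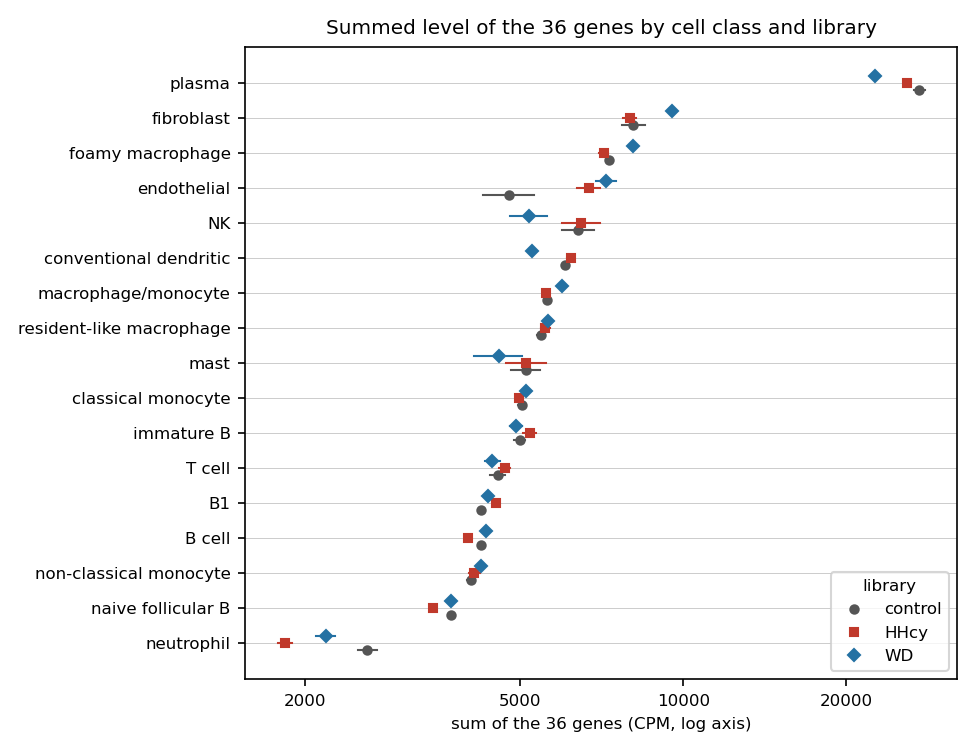
Sum of the 36 genes (CPM, log axis) for each cell class, with 1 point per library and bars for the 95% Poisson counting interval. Plasma cells lie at 22580 CPM or above in all 3 libraries and neutrophils at 2609 CPM or below.

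Gene by gene, 26 of the 36 members were highest in plasma cells in all 3 libraries among the 10 classes with enough cells in each. The ranking was made for the members only, so no share of all genes stands beside this count. A further 7 members, namely Dnajb9, Dnajc3, Canx, Pdia3, P4hb, Atf4 and Derl2, had their highest class differ between libraries. The other 3 peaked elsewhere. Among these 10 classes Ern1 was highest in endothelial cells, at 43.0, 31.9 and 37.6 CPM in 11, 24 and 35 cells. Those values rest on 3, 8 and 11 UMIs, with counting intervals that overlap those of plasma cells (4, 34 and 8 UMIs). Group 2 innate lymphoid cells, left out of the ranking with 9, 16 and 20 cells, held more Ern1. It stood there at 148, 104 and 145 CPM on 8, 13 and 18 UMIs. Eif2ak3 was highest in B cells at 82.1, 70.4 and 71.9 CPM. Ddit3 was highest in mast cells at 172, 112 and 121 CPM, on 34, 12 and 10 UMIs. These 3 are sensors or transcription factors, as is Atf4.

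Plasma cells were compared with B cells, their precursors, over the UMI sums of both classes in each library. The libraries held 15, 74 and 18 plasma cells and 2305, 3831 and 1299 B cells. Jchain, the joining chain of secreted antibody, marked the plasma cells at 12227, 13912 and 22221 CPM against 13.8, 22.6 and 21.8 CPM in B cells. Of the 36 members, 33 were higher in plasma cells and none was lower by edgeR's quasi-likelihood test at an adjusted p under 0.05, and likewise 0 were lower at an unadjusted p under 0.05 and 0 by DESeq2. Over all 10600 genes tested, 19.0% were higher and 24.0% lower. The median member was higher by 2.66 on the log2 scale, against −0.19 over all genes. Without the HHcy library the counts were the same, 33 and 0. These p-values measure how the class difference varies over 3 libraries that also differ in treatment.

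The chaperones of the ER lumen, which bind and fold nascent proteins, were all 10 higher in plasma cells. Creld2, a chaperone helper induced by ER stress, stood at 524, 589 and 365 CPM in plasma cells and 16.7, 16.1 and 17.6 CPM in B cells, a log2 difference of 5.17 ± 0.22 (SE). Sdf2l1, a partner of BiP complexes, stood at 425, 491 and 375 CPM against 22.2, 30.1 and 28.3 CPM (4.32 ± 0.18). Hsp90b1, which encodes the HSP90 paralog GRP94, stood at 6182, 4504 and 3698 CPM against 365, 350.0 and 362 CPM (4.01 ± 0.15). For all 3 genes each plasma value lay above each B cell value. Overlap was read for the members only, so no share of all genes stands beside it, here or below. Mzb1, a chaperone helper of B-lineage cells, was already at 421, 406 and 427 CPM in B cells and rose to 2886, 3673 and 2984 CPM (3.22 ± 0.16). Hspa5, which encodes BiP, the central ER chaperone, differed by 2.29 ± 0.15, and Dnajb9, a BiP helper, by 0.91 ± 0.18, the smallest difference among the 33. The adjusted p of Dnajb9 was 0.000501 by edgeR, a call lost at a mitochondrial limit of 20%.

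The lectin chaperones, which hold glycoproteins, differed less. Calr (calreticulin) stood at 1587, 1393 and 1254 CPM in plasma cells and 343, 407 and 388 CPM in B cells, a log2 difference of 2.2 ± 0.16. Canx (calnexin) stood at 365, 223 and 324 CPM against 163, 157 and 163 CPM (1.18 ± 0.16). The disulfide isomerases, which form and rearrange disulfide bonds, were higher in 5 of 5. Txndc5 differed most, at 748, 1122 and 1216 CPM against 76.8, 68.8 and 80.7 CPM (4.06 ± 0.21). Pdia6 followed with 801, 907 and 618 CPM against 87.0, 104 and 93.6 CPM (3.32 ± 0.18), and then Pdia4 with 615, 674 and 552 CPM against 146, 108 and 121 CPM (2.61 ± 0.19). No plasma value of these 5 genes lay within the range of the B cell values.

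The sensors and transcription factors split. Xbp1, the transcription factor of the IRE1 alpha branch, stood at 1264, 1533 and 785 CPM in plasma cells and 46.9, 40.9 and 42.9 CPM in B cells, a log2 difference of 5.04 ± 0.23 with an edgeR adjusted p of 2.42e-12. Ern1, which encodes IRE1 alpha, stood at 15.2, 16.6 and 20.3 CPM against 3.15, 2.24 and 3.54 CPM (3.0 ± 0.42). Atf6, the third sensor, stood at 114, 99.7 and 127 CPM against 72.6, 56.0 and 68.7 CPM (1.13 ± 0.18). Those 3 were called, and the 3 genes of the PERK branch were not. Eif2ak3 stood at 49.4, 55.7 and 63.3 CPM against 82.1, 70.4 and 71.9 CPM (−0.04 ± 0.21, edgeR adjusted p = 0.901). Atf4 stood at 292, 294 and 274 CPM against 359, 309 and 362 CPM (0.06 ± 0.17, edgeR adjusted p = 0.809). Both are lower in plasma cells in every library as plain CPM, and the fit's scaling shifts all plasma values up by 0.32 on the log2 scale. Ddit3 stood at 103, 44.5 and 32.9 CPM against 44.1, 36.8 and 56.4 CPM (0.63 ± 0.26, edgeR adjusted p = 0.0584), and its groups overlap. It passed the threshold under 6 other settings, named in the closing part. A p that misses the threshold does not show that these 3 messengers are alike in both classes. UMI counts give messenger levels, and neither the splicing of Xbp1 nor the activity of a sensor or branch was read.

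Degradation from the ER, the route that returns misfolded proteins to the cytosol, was higher in 7 of 7 genes. Derl3, a derlin of secretory cells, differed most of all members, at 281, 228 and 162 CPM in plasma cells and 6.05, 4.62 and 5.16 CPM in B cells (5.73 ± 0.22, edgeR adjusted p = 2.43e-13). Edem1, a lectin that selects glycoproteins for degradation, stood at 440.5, 465 and 383 CPM against 53.7, 41.2 and 48.6 CPM (3.49 ± 0.19). Herpud1 stood at 581, 489.9 and 534 CPM against 90.5, 73.3 and 101 CPM (2.92 ± 0.18). The other derlins differed less, Derl1 by 1.98 and Derl2 by 1.67, as did the ubiquitin ligase Syvn1 by 1.5. The translocation genes, which pass nascent chains into the ER, were higher in 6 of 6. Ssr2, a subunit of the translocon-associated complex, stood at 456, 443 and 357 CPM against 35.5, 44.1 and 45.9 CPM (3.63 ± 0.18). Ssr4, of the same complex, stood at 961, 1467 and 1107 CPM against 128, 153 and 158 CPM (3.30 ± 0.18). Sec61b, of the channel itself, stood at 1815, 1597 and 1368 CPM against 313, 286 and 325 CPM (2.67 ± 0.17). For all 13 genes of these 2 roles the plasma values lay above the B cell values in all 3 libraries. The share of all genes that separate in this way was not counted.

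**Figure D2:**
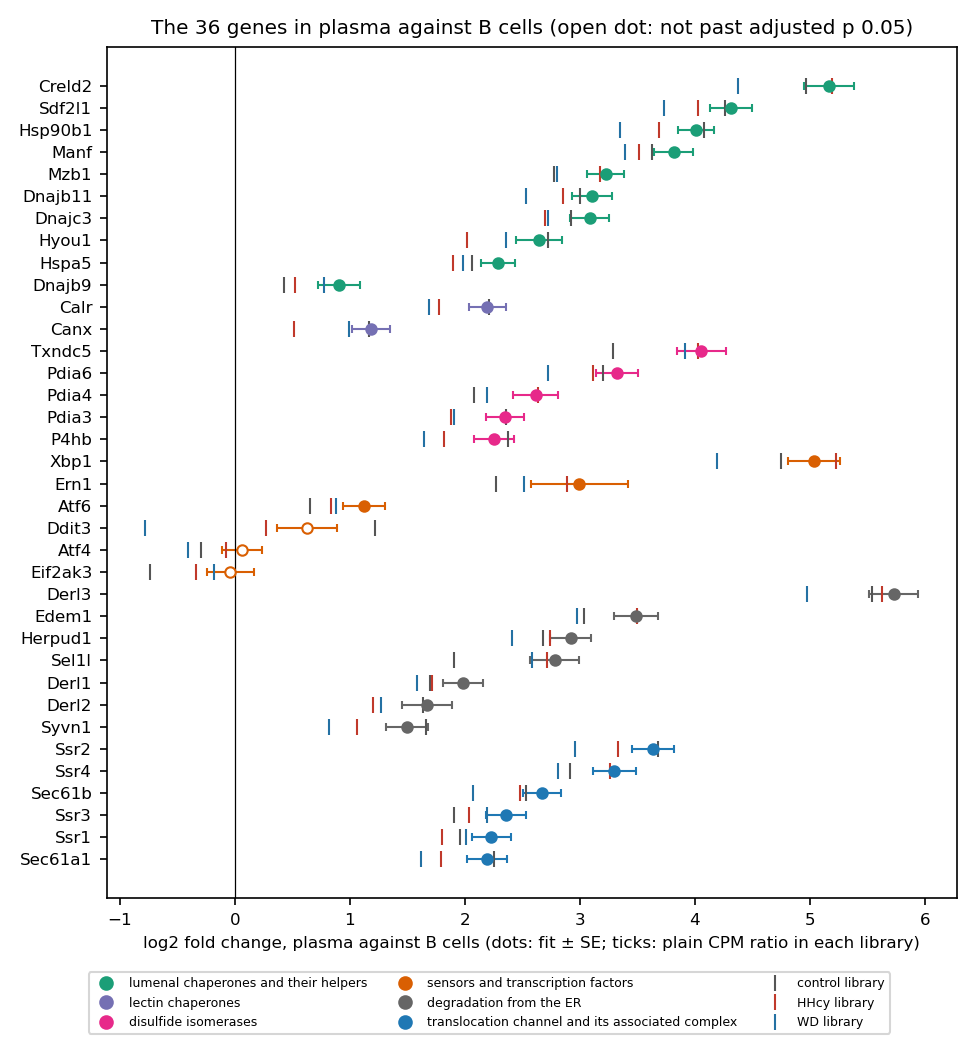
Log2 fold change of plasma cells against B cells for each of the 36 genes by role (dots, edgeR fit ± SE) with the plain CPM ratio of each library as ticks. Filled dots are the 33 genes called, and the open dots are Ddit3, Atf4 and Eif2ak3.

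Other secretory genes were tested in the same fit. Of the targeting and signal peptidase list, 15 of 17 genes tested were higher in plasma cells and none lower. Of the oligosaccharyltransferase list, which attaches N-glycans, 9 of 11 were higher and 1 lower, led by Ddost (3.31 ± 0.18). Of the other folding enzymes, 12 of 14 were higher, led by the prolyl isomerase Fkbp11 (4.51 ± 0.27). Of the other degradation genes 9 of 11 were higher, and of the ER to Golgi transport genes 16 of 17, led by the cargo receptor Lman1 (4.38 ± 0.18). Of the integrated stress response targets, genes switched on through ATF4, 8 of 13 were higher and 2 lower. Chac1 (6.73 ± 0.61), the asparagine synthetase gene Asns (4.95 ± 0.51) and the serine synthesis gene Psat1 (2.99 ± 0.28) led that list, while Atf4 itself was not called. A list of dissociation and cytosolic heat shock genes had 4 of 14 higher and 2 lower.

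Plasma cells also differed from B cells in depth and in immunoglobulin load. Their median UMIs per cell were 13543, 26724 and 19121, against 7459, 6449 and 6679 in B cells. Immunoglobulin genes took 22.8, 36 and 31.9% of plasma cell UMIs and 1.24, 1.24 and 1.40% of B cell UMIs. With immunoglobulin UMIs left out of the totals, the summed level of the 36 genes was 35338, 40564 and 33174 CPM in plasma cells and 4283, 4052 and 4381 CPM in B cells, so the gap was wider. The plasma cells formed a non-cycling cluster of 9, 49 and 11 cells and a cycling cluster of 6, 25 and 7 cells. Immunoglobulin took 51.6, 53.1 and 50.5% of UMIs in the first and 9.70, 18.5 and 11.2% in the second, and the 36 genes summed to 24793, 19783 and 18589.7 CPM and 28419.5, 32299.8 and 27035 CPM. Without the cycling cluster 32 members were called and Canx was lost (0.62, edgeR adjusted p = 0.0743), with the control library out of that fit. The part of depth in these differences was not tested.

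Macrophages and monocytes, the other large population, differed from B cells in both directions. Of the 36 members 24 were higher and 6 lower, where 37.2% and 37.6% of 13039 genes were. The median member differed by 0.46 (log2), against −0.03 over all genes, and the fit's scaling moves these values by −0.14. Without the HHcy library the counts were 23 and 6. The highest among the called were Ern1 at 14.8, 17.6 and 13.2 CPM against 3.15, 2.24 and 3.54 CPM (2.26 ± 0.19), Sdf2l1 at 87.7, 107 and 116 CPM against 22.2, 30.1 and 28.3 CPM (1.80 ± 0.09) and Xbp1 at 183, 169 and 146 CPM against 46.9, 40.9 and 42.9 CPM (1.79 ± 0.08). Ern1, Sdf2l1 and Xbp1 thus stood higher in macrophages than in B cells in each library. Hspa5 differed by 0.87 ± 0.08, and P4hb, a protein disulfide isomerase that also serves collagen hydroxylation, by 1.21 ± 0.08. Cd79a, a B cell marker, stood at 17, 26.4 and 10.4 CPM in macrophages/monocytes, and Lyz2, a myeloid marker, at 128, 165 and 175 CPM in B cells, and their part in these differences was not tested.

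The 6 lower genes include 2 that are known from antibody-secreting cells. Mzb1 stood at 3.33, 6.86 and 1.81 CPM in macrophages, a difference of −7.04 ± 0.31, and Derl3 at 0.805, 0.836 and 0.54 CPM (−3.04 ± 0.24). Among cells thinned to 1000 UMIs each, 27.0%, 28.0% and 28.5% of B cells held an Mzb1 UMI. The shares were 0.393%, 1.05% and 0.216% of macrophages and 1.12%, 0.761% and 0.407% of neutrophils. The macrophage share lay above the neutrophil share in the HHcy library and below it in the control and WD libraries. Whether these shares are background was not tested. Before thinning the median UMIs per cell were 7459, 6449 and 6679 in B cells, 7364, 8200.0 and 9213 in macrophages and 4412, 4839 and 3918 in neutrophils. Eif2ak3 followed at 14.9, 16.3 and 13.7 CPM (−2.47 ± 0.09), then Syvn1 at 23.7, 23.0 and 20.6 CPM (−1.57 ± 0.10). Txndc5 and Pdia4 were lower, at −1.36 ± 0.10 and −1.21 ± 0.10, while the other 3 disulfide isomerases were higher. The PERK sensor gene was thus lower in macrophages, while Atf4 (−0.13) and Ddit3 (−0.01) were not called (edgeR adjusted p = 0.14 and 0.918). Herpud1 stood at 118, 121 and 116 CPM against 90.5, 73.3 and 101 CPM (0.29 ± 0.10, edgeR adjusted p = 0.0221), a call that was lost without the control library and without the HHcy library. Of the wider lists, 10 of 15 folding enzymes, 10 of 17 transport genes and 12 of 14 heat shock genes were higher, with 2, 3 and 1 lower. Of the targeting genes 3 of 17 were higher and 4 lower, and of the oligosaccharyltransferase genes 5 of 11 and 4. Of the other degradation genes 4 of 11 were higher and 2 lower, and of the stress response targets 7 of 13 and 2.

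Within B cells, B1 cells were compared with naive follicular B cells. B1 cells are innate-like and secrete natural antibody, and follicular cells wait for antigen. The libraries held 1134, 723 and 497 B1 cells and 693, 2551 and 465 naive follicular cells, so that B1 cells made up 49.2%, 18.9% and 38.3% of B cells. Of the 36 members 22 were higher in B1 cells and 2 lower, where 25.9% and 23.5% of 10581 genes were. The median member differed by 0.24 (log2), against 0.00 over all genes. Without the HHcy library the counts were 18 and 3. The scaling of the fit adds 0.10 to these values, and B1 cells were deeper, with median UMIs of 10546, 11355 and 10710.0 against 5208, 5982 and 5052.

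Members of several roles were among those that differed most. Derl3 stood at 6.82, 6.64 and 6.42 CPM against 1.78, 1.46 and 0.387 CPM (2.34 ± 0.29), low in both. Pdia4 stood at 183, 177 and 154 CPM against 74.3, 74.1 and 76.9 CPM (1.30 ± 0.07). Mzb1 stood at 499, 648 and 564 CPM against 295, 309 and 302 CPM (1.01 ± 0.07). In each of these 3 genes every B1 value lay above every naive value. Sdf2l1 (0.81), Txndc5 (0.80), Creld2 (0.77), Manf (0.75) and Atf6 (0.65) were also higher without overlap. Ern1 was higher by 1.02 ± 0.33, from 1.27, 1.40 and 2.71 CPM to 3.41, 2.82 and 3.21 CPM, a call that was lost without the control library and without the HHcy library. Xbp1 was not called (0.18 ± 0.09, edgeR adjusted p = 0.128), with 42.4, 43.1 and 39.6 CPM against 47.6, 34.5 and 39.8 CPM. The 2 lower genes were Ddit3 (−0.47 ± 0.11) and Eif2ak3 (−0.33 ± 0.08). Some of the weaker calls lay near the scaling shift, such as Pdia6 at 0.22, which was higher in 1 of 3 libraries as plain CPM. Of the wider lists, 7 of 14 folding enzymes, led by Fkbp11 (1.72 ± 0.15), and 6 of 11 oligosaccharyltransferase genes were higher and none lower. Of the targeting genes 8 of 17 were higher and 3 lower, of the other degradation genes 4 of 11 and 1, and of the transport genes 5 of 17 and 1. Of the stress response targets 7 of 11 were higher and 1 lower, led by Atf3 (4.06 ± 0.08) and the serine synthesis gene Phgdh (1.63 ± 0.08). Atf3 is also in the dissociation and heat shock list, of which 7 of 14 were higher and none lower. The part of that list's difference in the members' values was not tested.

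Immature B cells are given here as values of a few members only, because no test of them was planned. They were 269, 185 and 220 cells. Herpud1 stood at 256, 268 and 270.1 CPM in them, 73.9, 84.3 and 79.4 CPM in B1 cells and 65.9, 51.7 and 67.7 CPM in naive cells. Ddit3 stood at 128, 106 and 124 CPM, against 30.4, 29.6 and 35.7 CPM in B1 and 55.0, 33.4 and 61.1 CPM in naive cells. Syvn1 stood at 148, 133 and 127 CPM, against 59.8, 45.2 and 54.1 CPM in B1 and 63.1, 48.1 and 62.3 CPM in naive cells. Hsp90b1 stood at 578, 606 and 546 CPM, against 342, 394 and 336 CPM in B1 and 317, 281 and 307 CPM in naive cells. In all 3 libraries these 4 genes were higher in immature cells than in the other 2 subsets. They are examples, and how many of the members or of all genes do the same was not counted. Mzb1 went the other way at 157, 166 and 150.3 CPM, below its B1 and its naive levels in each library.

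Among macrophages, foamy cells were compared with resident-like cells. Both were named by marker lists, which hold Gpnmb, Spp1 and Fabp5 for foamy (lipid-laden) and Lyve1, Folr2 and Cd163 for resident-like cells. There were 209, 128 and 298 foamy and 438, 347 and 529 resident-like cells. The foamy cells join 2 sub-clusters. The larger, with 156, 76 and 272 cells, was led by Lgals3, Spp1, Cstb and Fabp5. Il1rn, Il1b, Ptgs2 and Cxcl2 were also among its 10 leading genes. The smaller, with 53, 52 and 26 cells, was led by the foamy marker Mmp12 and by the MHC class II genes Cd74 and H2-Eb1. Of the 34 members tested 21 were higher in foamy cells and 2 lower, where 25.3% and 25.1% of 9775 genes were. Mzb1 and Derl3 were too low to test. The median member differed by 0.51 (log2), against −0.03 over all genes, and the scaling adds 0.15. Without the HHcy library the counts were 22 and 3, and without the smaller sub-cluster, an alternative chosen after seeing the data, also 22 and 3. The summed level was 7300.4, 7124 and 8089 CPM in foamy and 5460.1, 5562 and 5616 CPM in resident-like cells, without overlap.

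Chaperones led the foamy cells. Creld2 stood at 54.3, 53.3 and 66.0 CPM against 21.0, 18.6 and 18.7 CPM (1.74 ± 0.16). Sdf2l1 stood at 154, 180.0 and 203 CPM against 56.6, 87.5 and 85.3 CPM (1.39 ± 0.14). Hyou1, an exchange factor for BiP, stood at 44.1, 57.6 and 51.2 CPM against 24.8, 20.9 and 19.8 CPM (1.37 ± 0.17). In all 3 the foamy values lay above the resident-like values. When cells were named one by one from their own markers the Creld2 difference was 0.38 and not called. Edem1 (1.34), Manf (1.32), Dnajb11 (1.30), Ssr2 (1.24), Sec61b (1.24), Ssr4 (1.17) and Pdia6 (1.05) were next, also without overlap. Translocation genes were higher in 5 of 6 and disulfide isomerases in 5 of 5, of which Pdia4 (0.39 ± 0.15) was lost under several settings.

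None of the 6 sensors and transcription factors was higher in foamy cells by edgeR, also at an unadjusted p under 0.05, and 0 were by DESeq2. Xbp1 stood at 178, 178 and 148 CPM against 189, 167 and 147 CPM (0.15 ± 0.12, edgeR adjusted p = 0.33). Atf4 stood at 352, 282 and 345 CPM against 389.8, 375 and 368 CPM (−0.07 ± 0.13, edgeR adjusted p = 0.689). Ddit3, Atf6 and Ern1 differed by 0.18, 0.27 and −0.05 and were not called. Without the HHcy library Ddit3 passed as higher, and without the WD library Atf6 did. Eif2ak3 (−0.58 ± 0.21) and the BiP helper Dnajb9 (−0.44 ± 0.13) were lower, and both calls were lost without the control library and without the WD library. Herpud1 was not called (−0.27 ± 0.13), but passed as lower without the HHcy library and without the smaller foamy sub-cluster. Foamy cells were deeper, with median UMIs of 11985, 10001 and 14982 against 4846, 6134 and 6705, and their median mitochondrial share was 2.36, 2.92 and 2.58% against 4.95, 4.97 and 4.59%. The dissociation and heat shock list ran the other way, with 9 of 14 lower and 1 higher, led by Hspa1b (−2.81 ± 0.25). The part of these differences in the members' values was not tested. Of the wider secretory lists, 14 of 17 targeting, 7 of 11 oligosaccharyltransferase and 9 of 17 transport genes were higher and none lower. Of the other folding enzymes 5 of 13 were higher and 2 lower, and of the other degradation genes 3 of 11 were higher and none lower, the latter a share near that of all genes. The cystine transporter gene Slc7a11 (5.34 ± 0.20) led the stress response targets, of which 5 of 10 were higher.

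**Figure D3:**
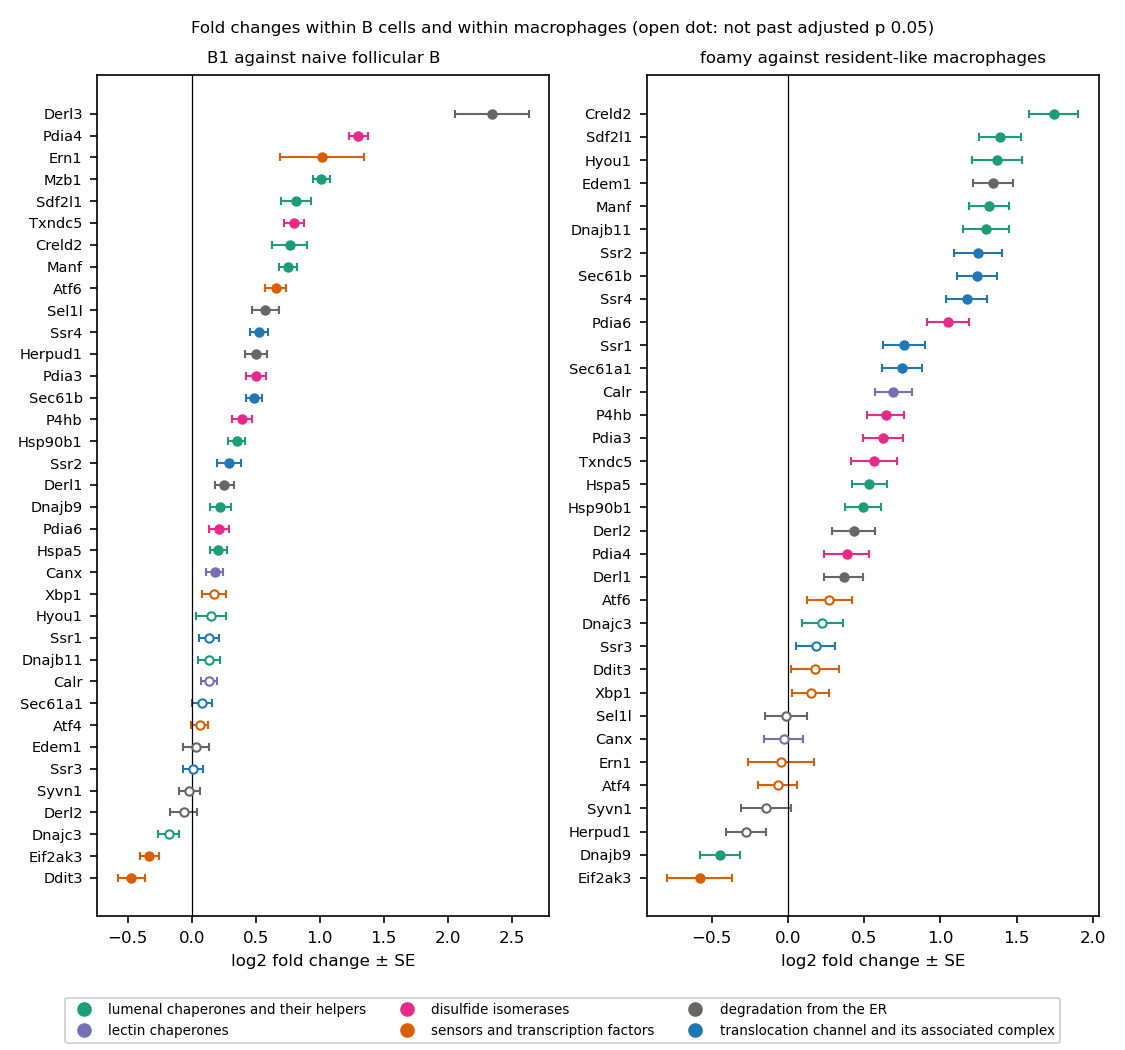
Log2 fold change ± SE (edgeR) of B1 against naive follicular B cells for 36 genes and of foamy against resident-like macrophages for 34 genes, coloured by role. Derl3 leads on the left at 2.34 and Creld2 on the right at 1.74, while Eif2ak3 lies below 0 in both.

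Plasmacytoid dendritic cells are known for a large secretory apparatus. They were 3, 39 and 7 cells, too few in the control and WD libraries for a test. In the HHcy library, which held most of them, Hsp90b1 stood at 821 CPM, Xbp1 at 234 CPM, Herpud1 at 283 CPM and Mzb1 at 147 CPM. Conventional dendritic cells of that library held 510.2 CPM, 114 CPM, 185 CPM and 26.3 CPM of the same genes.

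Library ratios within a class set the HHcy and the WD library beside the control library, and each rests on 1 library a group. Treatment and library therefore cannot be told apart, and the HHcy library also differs in Apoe, as given above. A gene was called when its CPM differed from the control library by more than 1.5-fold, with a 95% binomial interval that excludes no change and a mean of at least 10 CPM over the libraries. The intervals cover counting error only. Both comparisons share the control library. In B cells none of the 34 members tested was called in either. Over 7126 genes, 1.95% were higher and 3.97% lower in the HHcy library, and 0.884% and 0.477% in the WD library. The median member ratio was −0.13 for HHcy (all genes −0.01) and 0.02 for WD (all genes 0.02). With the sub-clusters of each library weighted to the same mix the medians were −0.03 and −0.00. The dissociation and heat shock list was lower in 5 of 14 genes for HHcy (median −0.33) and in 1 for WD (median −0.01). In naive follicular cells it was lower in 7 of 14 for HHcy (median −0.44) and in 0 for WD. In macrophages and monocytes 1 of 14 was lower for HHcy (median −0.15) and 0 for WD (median −0.04), and in classical monocytes 6 of 14 were lower for HHcy (median −0.54). The part of this list's difference in the members' ratios was not tested.

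Single members in B cells differed little between libraries. Sdf2l1 was the highest for HHcy at 22.2, 30.1 and 28.3 CPM, a log2 ratio of 0.44 (95% interval 0.28 to 0.61) for HHcy and 0.35 (95% interval 0.13 to 0.57) for WD. Syvn1 was the lowest for HHcy at −0.43 (95% interval −0.54 to −0.33), and Pdia4 stood at −0.43 (95% interval −0.50 to −0.36) for HHcy and −0.27 (95% interval −0.37 to −0.18) for WD. Herpud1, the homocysteine-induced gene, was lower in the HHcy library at 90.5, 73.3 and 101 CPM, a ratio of −0.30 (95% interval −0.39 to −0.21), and 0.15 (95% interval 0.04 to 0.26) for WD. Its HHcy ratio was −0.06 with the same sub-cluster mix. Immature B cells, the B cell subset with the highest Herpud1 level, were 11.7%, 4.83% and 16.9% of B cells. The part of the subset shares in the Herpud1 ratio was not tested. Within B1 cells Herpud1 stood at 0.19 (95% interval 0.05 to 0.33) and within naive follicular cells at −0.35 (95% interval −0.55 to −0.14) for HHcy.

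In macrophages and monocytes likewise none of the 34 members tested was called in either library. Over 7579 genes, 1.45% were higher and 1.33% lower for HHcy, and 1.06% and 1.98% for WD. The median member ratios were −0.01 and 0.01. The translocon genes Ssr4, at 188, 266 and 248 CPM (0.50, 95% interval 0.43 to 0.57, and 0.40, 95% interval 0.34 to 0.46), and Ssr2 (0.34, 95% interval 0.20 to 0.47, and 0.47, 95% interval 0.36 to 0.58) were the highest for HHcy and for WD, respectively. Edem1 was the lowest for HHcy (−0.32, 95% interval −0.43 to −0.21), and Xbp1, at 183, 169 and 146 CPM, for WD (−0.32, 95% interval −0.39 to −0.26). Herpud1 stood at 0.03 (95% interval −0.06 to 0.13) and −0.02 (95% interval −0.10 to 0.05). So in the 2 largest classes every tested member stayed within 1.5-fold of the control library.

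**Figure D4:**
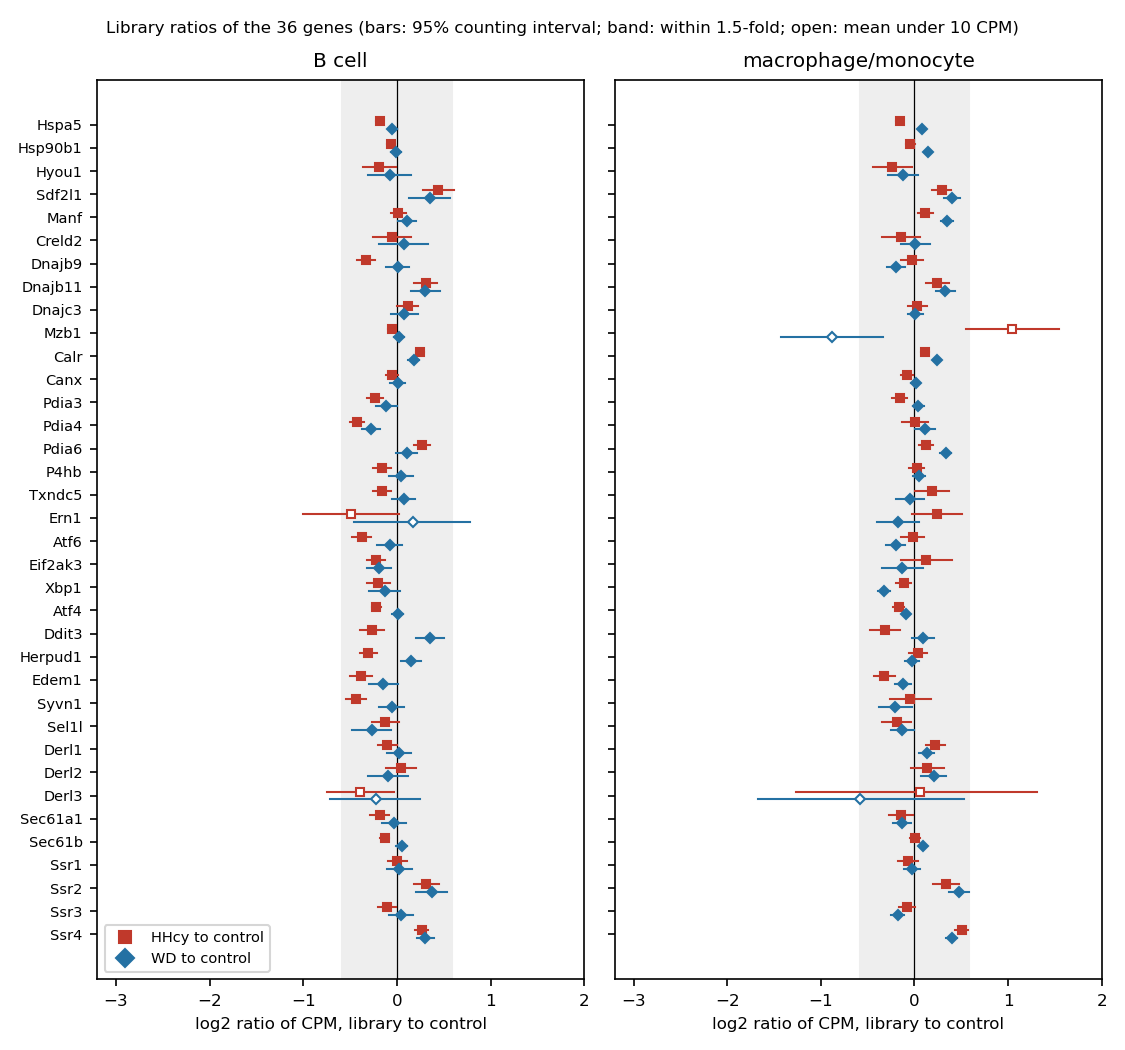
Log2 ratio of CPM to the control library for each of the 36 genes in B cells and in macrophages/monocytes, with 95% counting intervals. The 34 genes tested per class lie within the grey band of 1.5-fold, and open symbols mark genes with a mean under 10 CPM.

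Within subsets a few members passed the 1.5-fold limit. In B1 cells Sdf2l1 was higher for HHcy at 0.63 (95% interval 0.39 to 0.87), 1 of 34 members where 1.25% of all genes were higher and 0.961% lower. None was called for WD, where 0.903% and 0.714% of genes were. In naive follicular cells Edem1 (−0.75, 95% interval −0.97 to −0.52) and Ddit3 (−0.72, 95% interval −0.95 to −0.48) were lower for HHcy, 2 of 34 where 3.83% of genes were lower and 1.27% higher. None was called for WD (1.68% and 1.15%). In resident-like macrophages Sdf2l1 was higher in both libraries, at 0.63 (95% interval 0.30 to 0.95) and 0.59 (95% interval 0.30 to 0.89), where 2.93% and 2.72% of genes were higher and 3.51% and 2.67% lower. Each of these counts is 1 or 2 genes.

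In foamy macrophages Txndc5 was higher (0.70, 95% interval 0.21 to 1.18) and Ddit3 lower (−0.64, 95% interval −1.12 to −0.17) for HHcy, where 3.78% and 4.41% of genes were. For WD Atf6 was lower (−0.61, 95% interval −0.86 to −0.36), where 6.58% of genes were. The median member ratio of foamy cells was 0.18 for WD, against −0.06 over all genes, and 0.03 for HHcy, against −0.00. Since the 2 foamy sub-clusters made up different shares of each library, these ratios compare different mixes. In the larger sub-cluster alone, neither Ddit3 for HHcy nor Atf6 for WD was called. There Hyou1, Dnajb11, Txndc5 and Eif2ak3 were higher for HHcy, 4 of 34 where 4.96% of genes were higher, and no member was called for WD, where 2.31% of genes were higher and 5.68% lower. The medians were 0.18 for HHcy, against 0.02 over all genes, and 0.13 for WD, against −0.07. In classical monocytes Ssr2 (0.67, 95% interval 0.39 to 0.96) and Ssr4 (0.62, 95% interval 0.47 to 0.78) were higher and Sel1l, an adaptor of Syvn1, lower (−0.62, 95% interval −1.02 to −0.23) for HHcy, where 4.46% and 6.01% of genes were. Ssr2 was also higher for WD (0.76, 95% interval 0.49 to 1.04), where 3.13% of genes were.

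Plasma cells gave more calls on far fewer cells. For HHcy, Txndc5 (0.58), Sel1l (0.69) and Ssr4 (0.61) were higher and 7 members lower, with Ddit3 (−1.20, 95% interval −1.84 to −0.53) and Syvn1 (−1.03, 95% interval −1.46 to −0.58) the lowest. Over 6285 genes 2.88% were higher and 15.7% lower, so the share of the 36 members that was lower lay near that of all genes. The median member ratio was −0.11 for HHcy, against −0.32 over all genes, and −0.17 for WD, against −0.14. For WD, Txndc5 was higher (0.70, 95% interval 0.46 to 0.95) and 7 were lower, among them Xbp1 (−0.69, 95% interval −0.92 to −0.46) and Hsp90b1 (−0.74, 95% interval −0.84 to −0.64), where 2.98% and 7.24% of genes were. The control library held 15 plasma cells, and the immunoglobulin share of plasma cells was higher in the other 2 libraries, as given above. The part of that share and of the cycling cells in these ratios was not tested.

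In neutrophils 8 of 29 members tested were lower for HHcy and 5 for WD, and none was higher. Over 5614 genes 22.1% were lower for HHcy (4.7% higher) and 9.23% for WD (4.56% higher). The median member ratio was −0.45 for HHcy, against −0.27 over all genes, and −0.28 for WD, against −0.09. Atf4 stood at 522, 224 and 310.0 CPM, a ratio of −1.22 (95% interval −1.40 to −1.04) and −0.75 (95% interval −0.95 to −0.55). The neutrophils formed a cluster led by S100a9 and Lcn2 with 79, 72 and 44 cells and another led by S100a9 and Acod1 with 107, 329 and 215 cells. Atf4 stood at 765, 358 and 633 CPM in the first and 262, 176 and 182 CPM in the second. It was thus highest in the control library within both clusters, and the second cluster, where it is lower, held a larger share in the other libraries. The part of the cluster shares in the neutrophil ratios was not tested.

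Some values of B-lineage genes in other classes rest on single cells. In T cells of the HHcy library Mzb1 stood at 117 CPM, against 4.99 CPM in the control library, and 177 of its 186 UMIs lay in 1 cell, as did 582 of 600 Jchain UMIs. T cells had 5 of 35 members higher and 2 lower for HHcy, where 3.28% and 8.24% of genes were. Mzb1 was 1 of the 5, with Sdf2l1, Dnajb11, Txndc5 and Ssr2. Of Igkc, 3947 of 4514 UMIs in these T cells also lay in 1 cell. Sdf2l1, Dnajb11, Txndc5 and Ssr2 were higher in plasma cells than in B cells, but so were 33 of the 36 members in all. That property therefore does not set them apart. How many T cells hold the UMIs of Sdf2l1, Dnajb11, Txndc5 and Ssr2 was not read. No member was called in T cells for WD, where 4.8% of genes were higher and 4.3% lower. In conventional dendritic cells 5 of 34 members were lower for WD, where 4.8% of genes were lower and 3.31% higher. They were Creld2 (−0.88, 95% interval −1.24 to −0.54), Hyou1 (−0.76, 95% interval −1.16 to −0.37), Atf6, Syvn1 and Mzb1. For HHcy Txndc5 and Mzb1 were higher and Ddit3 and Eif2ak3 lower, where 4.51% and 3.72% of genes were, and 44 of 66 Mzb1 UMIs in that library lay in 1 cell.

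Fibroblasts and endothelial cells, which lie outside the sorted CD45+ population, were also present. The 30, 85 and 173 fibroblasts had 4 of 33 members higher for WD, namely Hspa5 (0.58), Manf (0.85, 95% interval 0.49 to 1.22), Dnajb9 (0.92) and Dnajb11 (1.01), where 3.28% of 8363 genes were higher and 5.13% lower. For HHcy only Hyou1 was called, lower at −1.59 (95% interval −3.00 to −0.14), where 5.01% of genes were lower and 5.08% higher. The 11, 24 and 35 endothelial cells had 7 of 35 members higher, Mzb1 among them with no UMI in the control library, and 1 lower for HHcy (2.98% and 5.49% of 8878 genes), and 9 higher and 1 lower for WD (2.84% and 5.24%). Hspa5 in them stood at 429.6, 567 and 980.1 CPM and Calr at 444, 758 and 806 CPM. Both sets of endothelial ratios rest on the 11 control cells.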

How the data were processed

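The authors deposited 1 filtered matrix of raw UMI counts per library, with no normalization, which per the file headers came from Cell Ranger 4.0.0 (Cell Ranger 2.2.0 and mm10 are named by the submitters' processing notes). Barcodes with at least 200 genes and at most 10% mitochondrial UMIs were kept, and barcodes with markers of 2 or more of 5 lineages were removed as doublets (10.6%, 21.3% and 20.9%). Cells were clustered in Python 3.11.15 (scikit-learn 1.9.0, leidenalg 0.10.2, 2000 variable genes, 30 components, resolution 1) with the members and the wider secretory lists left out, and 64 clusters were named from marker lists (marker score of at least 0.2, at least 3 markers detected and no other class close). Between 4.29% and 6.28% of cells stayed unnamed, including a small cluster with glial leading genes, a rule set after seeing the data.

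Raw counts were summed per class and library and tested with edgeR 4.0.16 (quasi-likelihood, TMM, filterByExpr, library as a covariate, Benjamini-Hochberg over all genes) in R 4.3.3. In simulated data of the plasma and B cell sums (10561 genes) 97% of 4-fold and 45% of 2-fold changes were recovered. Of the calls, 4.05% fell on unchanged genes. The list counts stand beside the share of all genes called in the same comparison. Counts of members without overlap, or highest in a class, have no such share because only the members were read. Named in full were, per role, the 3 members with the largest change between plasma and B cells, all sensors and transcription factors and Herpud1. The members, lists and tests were chosen with earlier results of these data known. The alternatives were DESeq2 1.42.0, other scaling, filters, clustering and naming, and each library left out. The test of plasmacytoid cells could not be run (under 10 cells in 2 libraries), and protein sequences were not used here. A second row named Ddit3 held 0 UMIs and was left out.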

Additional observations from a re-analysis of the deposited data

Results flagged for a closer look

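A cluster of 13, 36 and 18 cells with Jchain, Igkc and the member Hsp90b1 among its leading genes stayed unnamed, and no comparison above uses it. Plasma was its best match, with a marker score of 0.107 where 0.2 was needed for a name, and its cells had median UMIs of 793, 774.5 and 812. The 36 genes summed to 16127, 20008 and 21081 CPM in it, above the sums of every named class except plasma cells.

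Some members had library ratios of opposite sign in 2 cell types of the same library pair, each with a counting interval that leaves out 0. The difference between the cell types was not tested. For HHcy against control, Hsp90b1 stood at 0.20 (95% interval 0.14 to 0.27) in B1 cells and −0.18 (95% interval −0.27 to −0.09) in naive follicular cells. Herpud1 stood at 0.19 (95% interval 0.05 to 0.33) and −0.35 (95% interval −0.55 to −0.14) in the same subsets. Between B cells and macrophages/monocytes, Txndc5 stood at −0.16 (95% interval −0.25 to −0.06) and 0.19 (95% interval 0.01 to 0.37), and Derl1 at −0.10 (95% interval −0.21 to −0.00) and 0.22 (95% interval 0.12 to 0.33). For WD against control, Pdia4 stood at −0.27 (95% interval −0.37 to −0.18) in B cells and 0.11 (95% interval 0.01 to 0.22) in macrophages/monocytes. All 5 pairs lie within 1.5-fold.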

How the results depend on the processing

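No paired analysis was possible because each group holds 1 library, so no samples pair across groups. The class comparisons are matched within libraries by the library term, and without it the members higher and lower were 33 and 0 in plasma cells, 24 and 6 in macrophages, 17 and 1 in B1 cells and 21 and 1 in foamy cells. Over all alternatives, members higher ranged from 32 to 34 in plasma cells, 20 to 24 in macrophages, 14 to 23 in B1 cells and 15 to 22 in foamy cells, and lower from 0 to 0, 6 to 6, 1 to 3 and 0 to 3. Leaving out each library gave 33 to 34, 23 to 24, 18 to 20 and 18 to 22 higher, and 0 to 0, 6 to 6, 2 to 3 and 0 to 3 lower. Counts that moved by more than 1.5 times were B1 higher 14 and lower 1 (one fit over all classes), B1 lower 1 (no library term), and foamy lower 0 (DESeq2), 0 (without the control or the WD library) and 1 (no library term, and cells named by their own markers). Among library ratios with a main count of 0, thinned cells gave 5 B cell members lower for HHcy and 1 macrophage member lower for HHcy and for WD. The same sub-cluster mix gave 1 B cell member higher for HHcy, and kept doublets 1 macrophage member higher for HHcy. Ddit3 in plasma cells passed the threshold with DESeq2 size factors (0.0438), without the WD library (0.00486), without immunoglobulin (0.0465), with doublets (0.0143), at Leiden resolution 2 (0.0271) and by own markers (0.0255), as edgeR adjusted p-values. Eif2ak3 in plasma cells changed sign to 0.008 (DESeq2 size factors), 0.0092 (without immunoglobulin), 0.0124 (doublets), 0.0741 (resolution 2), 0.0838 (own markers) and 0.47 (no cycling cluster, an alternative chosen after seeing the data), and leaving out each library gave −0.2077 (HHcy) to 0.1087 (control). Atf4 changed sign to −0.0165 (no filter), −0.0032 (one fit) and −0.0504 (mitochondrial limit 20%), and leaving out each library gave −0.1468 (HHcy) to 0.1413 (control). Neither gene was called in any setting. Foamy Pdia4 changed sign and Creld2 was lost (0.38, edgeR adjusted p = 0.0726) when cells were named by their own markers. The cause of these moves was not tested. Depth limits Ern1 and Derl3 outside plasma cells and all ratios of plasma cells.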
